A study of Mus musculus with 6 samples.

Results

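The genes of the neuronal microtubule cytoskeleton and the growth cone were compared between motor neurons (MNs) differentiated from Hb9 control and from A2 SMA mESCs. The set has 10 genes, which were the stathmins (Stmn1, Stmn2, Stmn3 and Stmn4), the microtubule-associated proteins or MAPs (Map1a, Map1b, Map2 and Mapt), doublecortin (Dcx) and growth-associated protein 43 (Gap43). They were listed by name, with earlier results of these data known. Each was found in the deposited table of 41945 genes and loci, and Map1a, Map1b and Map2 stand there under the older symbols Mtap1a, Mtap1b and Mtap2. All 10 reached at least 1 FPKM (fragments per kilobase of exon, scaled to the mapped fragments of the library) in either genotype, as did 14926 entries with a gene symbol and more than 0 FPKM in both genotypes. These 14926 entries are called all genes here.

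Hb9 control mESCs are labelled wildtype and A2 SMA mESCs SMN2+/+;mSmn-/-, both on the FVB/N background. Per the methods of the study, both lines carry the human SMN2 transgene and an eGFP reporter under the Hb9 promoter, so that A2 differs by the loss of mSmn on both alleles. Embryoid bodies of either line were kept for 5 days in 1 µM retinoic acid with 1 µM Smoothened agonist, and eGFP-positive cells were then collected by FACS in 3 samples per genotype, called control and SMA MNs below. Each genotype is 1 mESC line, so an effect of genotype and other differences between the lines cannot be told apart. The table gives 1 pooled FPKM value per genotype, and values of single samples were not analysed here. The pooled values carry no spread between samples, so no SD was computed and no test was run, and the differences below were not checked against replicates. The test columns that the table also holds are the authors' own comparison and were not used. The table does not give the number of reads behind a value. Smn1, the gene removed in A2 SMA cells, had 137 FPKM in control and 5.26 FPKM in SMA MNs. A ratio below is the log2 of the FPKM in A2 SMA MNs over that in Hb9 control MNs.

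Microtubules give the axon its structure and carry its transport, and their assembly is set by proteins that bind tubulin. Stathmins bind free tubulin dimers and favour disassembly, whereas structural MAPs such as MAP1A, MAP1B, MAP2 and tau bind along the microtubule wall and stabilize it. Doublecortin binds between the protofilaments of microtubules in migrating and newly born neurons, and GAP-43 is a membrane-bound protein of the growth cone, the motile tip of a growing axon. Except for stathmin 1, which is also made by many dividing cells, these proteins are known mainly from neurons.

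Promoters are shown because the data bear on transcripts that were lower together. Promoters, taken as 250 bases before to 50 bases after the start of the gene, came from a table of RefSeq sequences (GRCm38.p6) that is not complete. Of the 10 genes, 5 were matched in it (Stmn3, Map1a, Map1b, Map2 and Dcx), and those of Stmn1, Stmn2, Stmn4, Mapt and Gap43 were not analysed here. The 3 printed here belong to the genes of these 5 with the lowest ratios, and run 5′ to 3′ on the strand of the gene. They lie at chr2:181314451-181314750 (minus strand) for Stmn3, at chr1:66175079-66175378 (plus strand) for Map2 and at chrX:143933170-143933469 (minus strand) for Dcx, which has 2 entries, of which the first is given. Capitals mark matches to 5 motifs, each searched on both strands. The E box, bound by basic helix-loop-helix factors, was searched as CANNTG. The GC box, bound by factors of the Sp family, was searched as GGGCGG. The TATA box, found near many regulated start sites, was searched as TATAAA. The core motif of many homeodomain factors was searched as TAATTA. The last motif was the CCAAT box, searched by the letters of its name. None of these motifs holds another, but matches can overlap.
Stmn3: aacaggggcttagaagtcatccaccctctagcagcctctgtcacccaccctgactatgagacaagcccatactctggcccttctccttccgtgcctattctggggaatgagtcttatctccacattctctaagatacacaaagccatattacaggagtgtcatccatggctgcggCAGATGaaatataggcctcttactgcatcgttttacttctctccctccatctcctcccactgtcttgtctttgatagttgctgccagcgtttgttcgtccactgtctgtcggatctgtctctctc
Map2: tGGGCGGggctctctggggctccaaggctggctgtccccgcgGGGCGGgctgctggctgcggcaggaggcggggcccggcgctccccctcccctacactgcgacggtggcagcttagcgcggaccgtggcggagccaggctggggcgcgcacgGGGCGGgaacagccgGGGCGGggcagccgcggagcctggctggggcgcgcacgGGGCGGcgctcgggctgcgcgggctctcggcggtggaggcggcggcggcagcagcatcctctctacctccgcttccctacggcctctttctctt
Dcx: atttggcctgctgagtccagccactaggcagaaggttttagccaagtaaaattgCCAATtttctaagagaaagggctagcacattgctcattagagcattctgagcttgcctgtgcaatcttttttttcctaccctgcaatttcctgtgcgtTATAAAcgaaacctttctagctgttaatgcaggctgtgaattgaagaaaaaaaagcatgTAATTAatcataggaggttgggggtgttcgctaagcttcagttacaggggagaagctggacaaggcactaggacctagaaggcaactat

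No motif was shared by these 3 promoters. That of Map2 had a GC content of 77.7%, higher than in 98.0% of the promoters of 27025 genes, and held 5 GC boxes and no match to the other motifs. The Dcx promoter had a GC content of 43%, higher than in 17.2% of genes, and held a TATA box, a homeodomain core and a CCAAT box. In the Stmn3 promoter, with a GC content of 49.7%, the only match was 1 E box. Map1a and Map1b each had a GC content of 65.7%, with 4 and 2 GC boxes. The median GC content over all 27025 promoters was 52.7%. Of these promoters, 72.1% hold an E box, 35.9% a GC box, 14.2% a TATA box, 5.31% a homeodomain core and 37.9% a CCAAT box, against 3, 3, 2, 1 and 2 of the 5 promoters of the set. A match is a description of the letters and not a binding site.

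All 10 transcripts were lower in A2 SMA MNs. Of the 10, 9 were at least 2-fold lower, where 22.4% of all genes were, and 7 were at least 4-fold lower, where 8.88% of all genes were. None was at least 2-fold higher, a level of change that 6.83% of all genes reached. The median ratio of the 10 was -3.42, and that of all genes was -0.29 (quartiles -0.89 and 0.19). When ratios were taken relative to this median, all 10 were again lower, 9 by at least 2-fold and 6 by at least 4-fold, Map1a being the one that crossed the limit, beside 16.5% of all genes at least 2-fold lower, 7.10% at least 4-fold lower and 10.4% at least 2-fold higher. Summed over the 10 transcripts, the level was 1188 FPKM in control and 171 FPKM in SMA MNs, which is 14.4% of the control level. In bulk samples such as these, fewer cells of a type and less RNA per cell cannot be told apart.

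**Figure D1:**
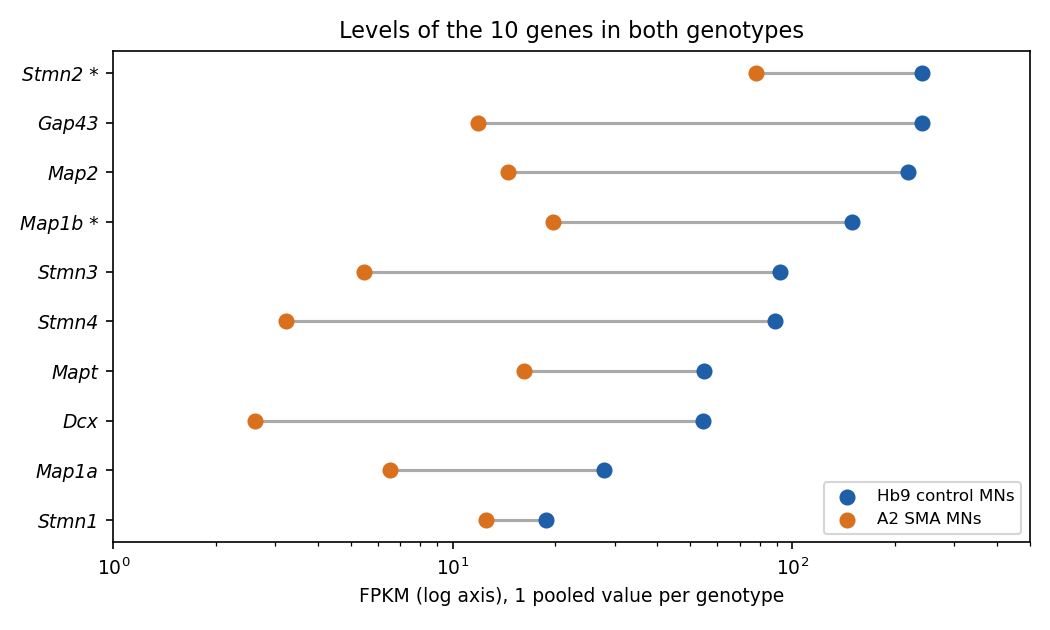
FPKM (log axis) of the 10 genes in Hb9 control MNs (blue) and A2 SMA MNs (orange), with 1 pooled value per genotype, in the order of the control level. Each orange point lies to the left of its blue point, with the shortest line for Stmn1 (18.8 and 12.5 FPKM) and the longest for Stmn4 (88.6 and 3.23 FPKM), and asterisks mark Stmn2 and Map1b, which have the status FAIL.

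Stmn2 and Gap43 were the most abundant of the set in Hb9 control MNs. Stmn2, which encodes the growth cone stathmin SCG10, had 242 FPKM, a level above that of 98.1% of all genes. Gap43 had 241 FPKM, and Map2, the main MAP of dendrites and cell bodies, had 218 FPKM. Map1b followed at 150 FPKM, Stmn3 at 92.0 FPKM, Stmn4 at 88.6 FPKM, Mapt at 54.9 FPKM and Dcx at 54.4 FPKM. The least abundant were Map1a (27.9 FPKM) and Stmn1 (18.8 FPKM). With 1 value per genotype, it cannot be said which neighbours in this order differ beyond the spread between samples. Stmn2 with Gap43, Stmn3 with Stmn4 and Mapt with Dcx were each within 1.04-fold of each other.

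The order was another one in A2 SMA MNs. Stmn2 was again the most abundant, at 78.0 FPKM, and made up 45.7% of the summed level of the set where it had been 20.3% in Hb9 control MNs. Next were Map1b (19.8 FPKM), Mapt (16.2 FPKM), Map2 (14.5 FPKM), Stmn1 (12.5 FPKM) and Gap43 (11.9 FPKM). Map1a had 6.51 FPKM, Stmn3 5.47 FPKM, Stmn4 3.23 FPKM and Dcx 2.61 FPKM. Stmn1 thus went from place 10 by level in Hb9 control MNs to place 5 in A2 SMA MNs, and Gap43 from place 2 to place 6. Without Stmn2, the sum of the other 9 transcripts was 946 FPKM in control and 92.7 FPKM in SMA MNs.

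Stathmins differed widely among themselves. In NCBI m37, the build of the table, they lie at chr4:134024235-134029758 (Stmn1), chr3:8509406-8561609 (Stmn2), chr2:181041164-181049205 (Stmn3) and chr14:66963133-66980517 (Stmn4). Stmn4, which encodes the stathmin RB3, had a ratio of -4.78, the lowest of the set, and 0.71% of all genes had a lower one. Its level of 3.23 FPKM was 3.65% of that in Hb9 control MNs. For Stmn3, which encodes SCLIP, the ratio was -4.07 and the remaining level 5.95%. The ratio of Stmn2 was -1.63, with 32.3% of the control level remaining. Stmn1, which encodes the stathmin of dividing cells, had a ratio of -0.59, which is a 1.51-fold lower level and the only one of the set short of 2-fold. Relative to the median of all genes its ratio was -0.30, and 35.1% of all genes had a lower ratio than Stmn1.

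The makeup of stathmin transcripts was not the same in the 2 genotypes. Stmn3 and Stmn4 made up 20.9% and 20.1% of the summed stathmin level in Hb9 control MNs and 5.51% and 3.26% in A2 SMA MNs. The share of Stmn2 was 54.8% in Hb9 control MNs and 78.6% in A2 SMA MNs, and that of Stmn1 was 4.27% and 12.6%. Stmn1 had 0.205 times the level of Stmn3 in Hb9 control MNs and 2.29 times its level in A2 SMA MNs. The entry of Stmn1 also holds AL669982.1, and how reads were divided within such an entry is not given in the sources used here, so the level of Stmn1 is uncertain.

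Structural MAPs were all at least 2-fold lower, with a median ratio of -2.51. In NCBI m37, Map1a lies at chr2:121115336-121181132, Map2 at chr1:66221847-66489157 and Mapt at chr11:104092704-104193404. Map2 had the lowest ratio of the 4, at -3.91, and its level of 14.5 FPKM in A2 SMA MNs was 6.66% of that in Hb9 control MNs. Map1b, which encodes a MAP of growing axons, had a ratio of -2.93 (150 and 19.8 FPKM). Map1a, its relative of more mature neurons, had a ratio of -2.10 (27.9 and 6.51 FPKM). The ratio of Mapt, which encodes tau, was -1.76, the highest of the 4. Map2 had 3.97 times the level of Mapt in Hb9 control MNs and 0.898 times its level in A2 SMA MNs.

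Some of these entries overlap others. Mapt has a second entry with the same coordinates, which had 28.3 FPKM in control and 4.83 FPKM in SMA MNs, a ratio of -2.55. With both entries summed, Mapt had 83.2 FPKM in control and 21.0 FPKM in SMA MNs, a ratio of -1.99. The level of Map2 was then 2.62 times that of Mapt in control and 0.692 times in SMA MNs, and Mapt stood in place 2 rather than place 3 by level in SMA MNs. Map1a shares its locus with Ppip5k1 (8.61 and 8.91 FPKM), and the counting is not stated to use strand. Cuffdiff gave Stmn2 and Map1b the status FAIL, which marks entries that it could not test for numerical reasons, as it did for 14.0% of all genes. The FPKM values of both are listed all the same. Of the genes named below, Map4, Dclk2, Mapre1, Clip3, Cdk5r1, Mapk8, Dpysl5, Enah, Gpm6b, Col1a1, Gata4 and Mccc2 have this status too. Among the stathmins the median ratio of -2.85 became -4.07 when entries with this status were left out, since Stmn2 then drops out.

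Dcx and Gap43 were among the lowest ratios of the set. Dcx, on the X chromosome from 140290385 to 140367854 of NCBI m37, had 54.4 FPKM in control and 2.61 FPKM in SMA MNs. This is a ratio of -4.38 and a 20.8-fold lower level. Gap43, on chromosome 16 from 42248555 to 42340764, had 241 FPKM in control and 11.9 FPKM in SMA MNs, a ratio of -4.34 and a 20.3-fold lower level. Its place among all genes by level went from above 98.1% of them to above 48.3%. Stmn2, also a protein of the growth cone, had about the same level as Gap43 in Hb9 control MNs (1.00 times) and 6.57 times its level in A2 SMA MNs.

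**Figure D2:**
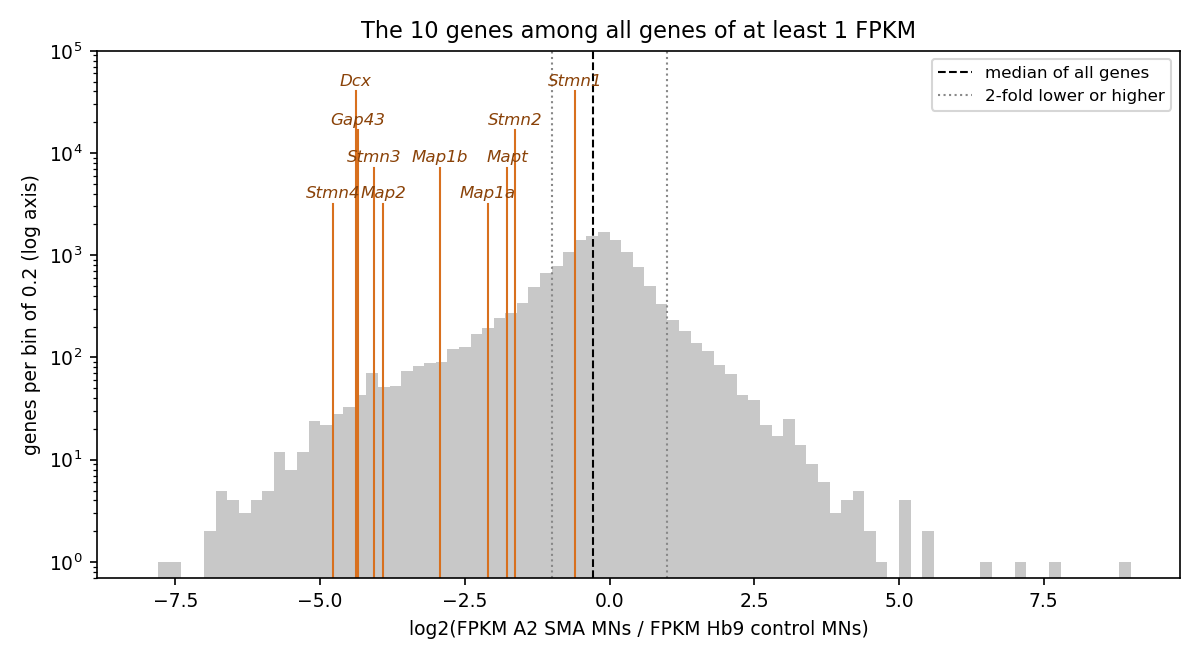
Number of genes (log axis) by log2 ratio of A2 SMA over Hb9 control MNs for all 14926 genes in bins of 0.2, with the 10 genes drawn as orange lines, the median of all genes dashed and 2-fold limits dotted. Dcx, Gap43, Stmn3, Stmn4 and Map2 lie between -4.78 and -3.91, Stmn2 and Mapt lie between -1.76 and -1.63, and Stmn1 lies nearest to the median of -0.29.

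Relatives of the same protein families were then set beside the members. The families were drawn up after the values had been seen. FPKM is per length of transcript, so levels of genes can be set side by side. The limits given above for entries that overlap, hold several symbols or have the status FAIL apply here too. Map4, Dclk2 and Map1b have this status. MAP4, the MAP of most non-neuronal cells, has microtubule-binding repeats like those of MAP2 and tau. Its transcript had 200 FPKM in control and 154 FPKM in SMA MNs, a ratio of -0.38 that is close to the median of all genes. Map4 made up 42.3% of the summed level of Map2, Mapt and Map4 in Hb9 control MNs and 83.4% in A2 SMA MNs. The share of Map2 was 46.1% and 7.85%.

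In the MAP1 family, the widely made Map1s had 35.9 FPKM in control and 32.4 FPKM in SMA MNs. It held 16.8% of the level of the family in Hb9 control MNs and 55.2% in A2 SMA MNs, and Map1b held 70.2% and 33.7%. Of the doublecortin-like kinases, Dclk1 had a ratio of -4.73 (15.7 and 0.595 FPKM), next to that of Dcx. Dclk2 had 27.9 FPKM in control and 28.0 FPKM in SMA MNs, a ratio of 0.0047. It made up 28.4% of the level of Dcx and the Dclk genes in Hb9 control MNs and 89.2% in A2 SMA MNs.

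In both growth cone families every relative had a ratio below the median of all genes. The 5 CRMP genes, whose proteins bind tubulin dimers and act in semaphorin signaling, had ratios from -3.64 for Dpysl4 to -2.81 for Dpysl5. Their summed level was 642 FPKM in control and 74.3 FPKM in SMA MNs. Marcks, Marcksl1 and Basp1 encode membrane-bound growth cone proteins that, like GAP-43, are regulated by protein kinase C or calmodulin. Marcks had a ratio of -2.59, Basp1 of -1.45 and Marcksl1 of -0.92, all above that of Gap43.

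**Figure D3:**
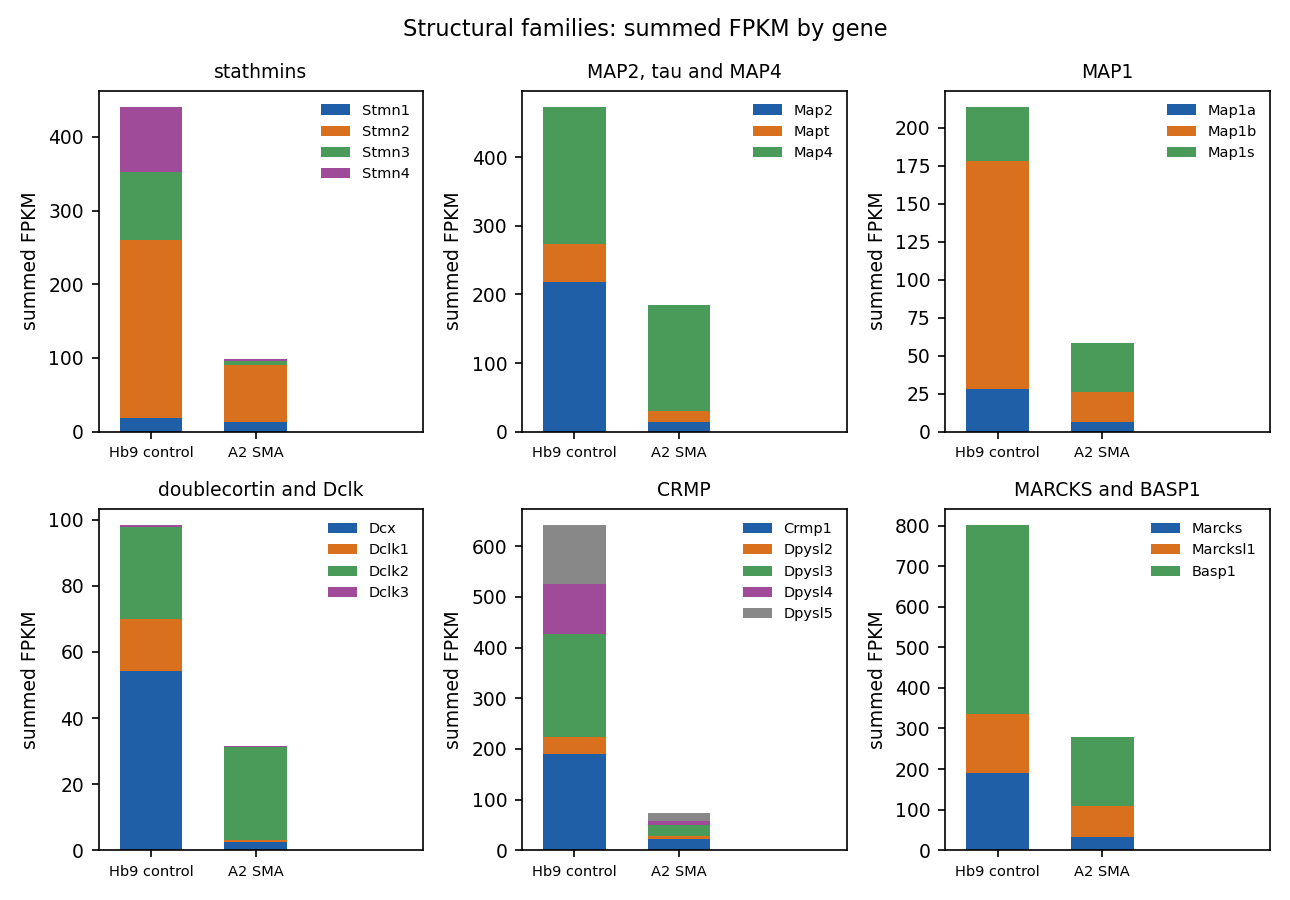
Summed FPKM of 6 structural families in Hb9 control and A2 SMA MNs, with 1 colour per gene and each vertical axis starting at 0. The sum was lower in A2 SMA MNs in each family, while Map4 (83.4%), Map1s (55.2%) and Dclk2 (89.2%) made up most of the remaining level in theirs.

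Other genes of the microtubule and the growth cone were read from 4 lists, in which the most abundant genes are those with the highest FPKM in either genotype, as in the marker lists. The list of 36 other MAPs, which holds plus-end, minus-end and lattice binding proteins and the Dclk genes, had 33 genes of at least 1 FPKM. Of these, 10 (30.3%) were at least 2-fold lower in A2 SMA MNs and 1 was at least 2-fold higher, with a median ratio of -0.58. Among all genes, 22.4% were at least 2-fold lower and 6.83% at least 2-fold higher, with a median ratio of -0.29. The most abundant were Map4, Clip3 (137 and 35.7 FPKM) and Nde1 (126 and 101 FPKM). Dclk1 had the lowest ratio and Map7, a MAP of epithelial cells, the highest, at 1.18 (26.1 and 59.2 FPKM). Of the 3 EB proteins, which bind growing microtubule ends, Mapre1 had a ratio of -0.31, Mapre2 of -1.44 and Mapre3 of -1.66. The EB genes were picked out after their values were seen.

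Severing enzymes, which cut microtubules, had the highest median of the 4 lists. Of 7 genes, 3 were at least 2-fold lower and none was at least 2-fold higher, with a median ratio of -0.21. Over all genes these shares were 22.4% and 6.83%, and the median ratio was -0.29. The most abundant were Katnal2, whose entry also holds Pias2 (50.1 and 91.2 FPKM), Fignl1 (60.0 and 67.0 FPKM) and Katna1 (46.3 and 47.3 FPKM). Katnal1 had the lowest ratio, at -1.71, with 6.11 FPKM in SMA MNs.

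Among the kinases that phosphorylate tau, MAPs, doublecortin or stathmins and their activators, 12 of 22 genes were at least 2-fold lower and none was at least 2-fold higher. Their median ratio was -1.04. The 12 genes are 54.5% of the list, where 22.4% of all genes were at least 2-fold lower and 6.83% at least 2-fold higher. Mark2 (100.2 and 96.2 FPKM), Mapk8 (73.5 and 46.3 FPKM) and Gsk3b (72.1 and 35.1 FPKM) were the most abundant. The lowest ratio was that of Brsk2, a kinase of neuronal polarity, at -4.06, and the highest that of Camk2b at 0.45. Cdk5, which phosphorylates tau and doublecortin, had a ratio of -0.54 (28.1 and 19.3 FPKM). Its neuronal activators p35 and p39, encoded by Cdk5r1 and Cdk5r2, had ratios of -3.43 (23.2 and 2.16 FPKM) and -2.39 (18.2 and 3.47 FPKM), and these 3 genes were picked out after their values were seen.

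Other growth cone proteins had the lowest median ratio of the 4 lists. Of 32 genes of at least 1 FPKM, 23 were at least 2-fold lower, 15 were at least 4-fold lower and 2 were at least 2-fold higher, with a median ratio of -1.77. The matching shares of all genes were 22.4%, 8.88% and 6.83%. The most abundant were the actin-bundling Fscn1 (513 and 240 FPKM), Basp1 (465 and 171 FPKM) and Cotl1 (319 and 112 FPKM). Gpm6b, which encodes a membrane glycoprotein of neurons and glia, had the lowest ratio at -5.07 (83.2 and 2.47 FPKM). Nrgn, which like Gap43 encodes a calmodulin-binding protein, had the highest at 1.34 (1.33 and 3.36 FPKM). The actin regulators Vasp and Enah, chosen after their values were seen, had ratios of 0.62 each.

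**Figure D4:**
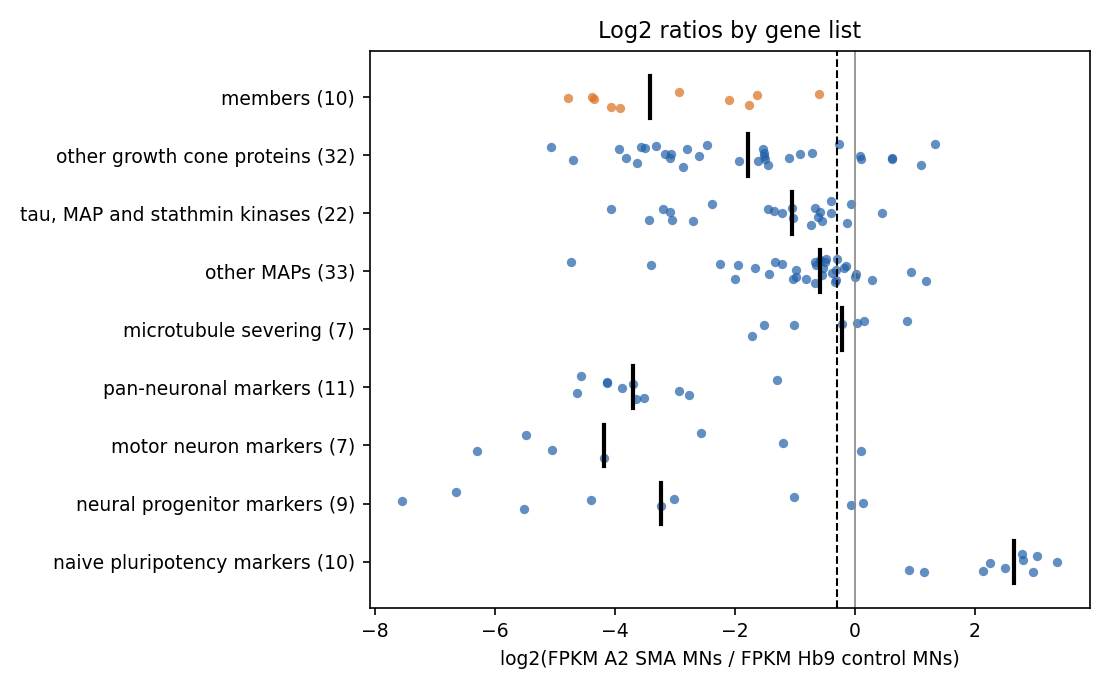
Log2 ratios of A2 SMA over Hb9 control MNs by gene list, with 1 point per gene of at least 1 FPKM, the number of genes in parentheses, a black bar at the median of each list and a dashed line at the median of all genes. The 10 genes of the set (orange) have a median of -3.42, beside -3.70 for pan-neuronal markers, -1.77 for other growth cone proteins, -0.21 for severing enzymes and 2.65 for naive pluripotency markers.

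Pan-neuronal markers and most motor neuron markers were also lower in A2 SMA MNs. Of all genes, 22.4% were at least 2-fold lower. The 11 pan-neuronal markers in the table were all at least 2-fold lower in A2 SMA MNs, with a median ratio of -3.70 and sums of 1350 FPKM in control and 104 FPKM in SMA MNs. The most abundant were the neurofilament genes Nefm (359 and 15.2 FPKM) and Nefl (297 and 17.0 FPKM). Of the set, Stmn4, Dcx, Gap43, Stmn3 and Map2 had ratios below this median, and Map1b, Map1a, Mapt, Stmn2 and Stmn1 had ratios above it. Of 7 motor neuron markers of at least 1 FPKM, 6 were at least 2-fold lower, with sums of 242 and 63.9 FPKM for the list and with 108 and 5.95 FPKM for Isl1. Mnx1, whose promoter drives the reporter used for sorting, had 41.2 and 44.2 FPKM. Lhx3 (27.6 and 0.348 FPKM) and Chat (15.5 and 0.344 FPKM) had the lowest ratios of the list. Prph had 26.0 and 11.3 FPKM, a ratio of -1.20, the highest after Mnx1. Lhx3, Chat and Prph were named after their values were seen.

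Markers of naive pluripotency went the other way. The counts of this paragraph stand beside 6.83% of all genes at least 2-fold higher and 22.4% at least 2-fold lower. Of 10 markers, 9 were at least 2-fold higher in A2 SMA MNs, with sums of 243 FPKM in control and 1548 FPKM in SMA MNs, and with 98.3 and 775 FPKM for Pou5f1 and 41.4 and 236 FPKM for Nanog. Neural progenitor markers had sums of 2565 and 444 FPKM (7 of 9 at least 2-fold lower), with Vim (1436 and 178 FPKM) and Fabp7 (553 and 5.52 FPKM) the most abundant by the control level. Sox2 (179 and 197 FPKM) and Pax6 (22.4 and 21.4 FPKM) were the 2 progenitor markers with ratios nearest to 0, at 0.14 and -0.07. Sox2 was the most abundant of the list in A2 SMA MNs, but the study also counts it among the hallmarks of pluripotency. Hes5 had the lowest ratio of the list, at -7.55 (65.3 and 0.349 FPKM). Sox2, Pax6 and Hes5 were named after their values were seen. Glial markers had sums of 76.2 and 17.1 FPKM (5 of 6 at least 2-fold lower), with Slc1a3 (32.2 and 6.86 FPKM) and Aldh1l1 (13.9 and 3.03 FPKM) the most abundant. Fibroblast markers had sums of 62.6 and 30.1 FPKM (5 of 6), with Col1a2 (20.1 and 8.93 FPKM) and Col1a1 (18.9 and 9.41 FPKM) the most abundant. Endoderm markers had sums of 90.2 and 41.1 FPKM (2 of 5), with Foxa2 (55.9 and 18.2 FPKM) and Gata4 (16.9 and 10.7 FPKM) the most abundant. Most of the control sum came from Foxa2, so the sums say little of the other endoderm markers. No marker in the table was listed at 0 FPKM. The part that the makeup of the sorted cells has in the levels of the 10 transcripts was not tested.

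Map1b lies on the chromosome of Smn1, 13, from 100191172 to 100286557, with 608 kb between it and Smn1. Of the genes around Map1b and between it and Smn1, looked at after the values were seen, Ptcd2 had a ratio of -0.03, Mrps27 of 0.41, Mccc2 of -0.18 and Bdp1 of -0.16. Cartpt, which encodes a neuropeptide precursor, had a ratio of -5.27. Serf1, next to Smn1, had 27.0 and 6.77 FPKM, a 3.99-fold lower level. Ptcd2 and Mrps27 lie on the side of Map1b away from Smn1, and the other 4 lie between Map1b and Smn1.

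Genes of similar pattern were sought for the 3 most abundant transcripts, by the distance between the log2 FPKM values of both genotypes. For Map2 and for Gap43 the nearest was Celsr2, a cadherin of neural tissue (235 and 13.9 FPKM), at distances of 0.12 and 0.23. For Stmn2 it was AC123853.1 (238 and 69.3 FPKM), at a distance of 0.17. Likeness over 2 values is a description only.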

How the data were processed

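RNA from FACS-collected eGFP-positive MNs was sequenced in 3 samples per genotype. Per the labels and the methods of the study, the authors used FastQC 0.10.1 for read quality, CutAdapt for trimming, TopHat 2.04 for mapping to NCBI m37 under the Ensembl annotation, and Cufflinks and Cuffdiff for transcript levels. The deposited FPKM values are the authors' own, with the 3 samples of a genotype combined into 1 value, so the table shows neither the spread between samples nor the reads and the error behind a value. The table also holds the authors' fold changes, test statistics, p and q, which were not used.

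A gene was found by its symbol or older symbol, and of several entries the one of the highest FPKM was taken. Ratios are log2 without a pseudocount, over entries with a symbol that reached 1 FPKM in either genotype and were above 0 in both, each counted once. No test was run, since the values of single samples were not analysed here. Starts in the table count from 0, and 1 was added. Members, lists and the rule for named genes (all members, the 3 most abundant genes and both extremes of each pathway list, 2 per marker list, Mnx1, Smn1, and the gene nearest in pattern to each of the 3 most abundant members) were chosen with earlier results of these data known. Genes of other families, the neighbours of Map1b, Lhx3, Chat, Prph, Sox2, Pax6 and Hes5 were named after their values were seen. Marker lists matched 8 of 9 motor neuron, 11 of 12 pan-neuronal and 9 of 10 neural progenitor genes, and all genes of the other marker lists. Python 3.11.15, numpy 2.4.6, pandas 2.3.3 and matplotlib 3.10.9 were used, and the list statistics were tested on simulated data. Promoters are RefSeq's (GRCm38.p6), joined by symbol.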

Additional observations from a re-analysis of the deposited data

How the results depend on the processing

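The results were recomputed under 10 alternatives: pseudocounts of 0.1 and 1 FPKM, ratios centred on the median gene, upper-quartile scaling, scaling to the reference genes Gusb, Pgk1 and Rpl13a, summing the entries of a symbol, the status OK only, no filter, a filter of 5 FPKM and, chosen after seeing the data, scaling to Mnx1. A value was counted as moved where it changed by more than 1.5-fold. Of 138 recomputed values 137 stayed within this limit and none changed sign. Most of them could not have moved. Centring and scaling shift every ratio by 1 constant that is smaller than the limit, at most in centring (-0.29). The filters and the status OK leave the ratio of each kept member as it was, and summing entries changes only Mapt. The count of 137 is therefore no measure of how firm the values are. The exception was the median ratio of the stathmins, which went from -2.85 to -4.07 with the status OK only, because that setting leaves out Stmn2. The median of the members ranged from -3.99 to -3.13, the count at least 2-fold lower from 7 (of the 8 members left with the status OK only) to 9 and the count at least 4-fold lower from 6 to 7. Over all genes, the share at least 2-fold lower ranged from 16.5% to 24.8% and the share at least 4-fold lower from 4.82% to 9.73%. The share at least 2-fold higher ranged from 4.28% (pseudocount of 1 FPKM) to 10.4%, and centring on the median gene gave 16.5% lower and 10.4% higher. No paired analysis was possible because the table used here pools the samples of a genotype, and no sample was left out in turn, since values of single samples were not analysed here. The reads behind each gene are not given in the table, which limits what can be said of levels near 1 FPKM.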
